A study of Mus musculus with 9 samples.

Results

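The genes described here are the matrix metalloproteinases (Mmp), the ADAMTS proteases (Adamts, Adamtsl left out) and their tissue inhibitors (Timp) in hearts of 2 month old mice. They were found by symbol, as every probe set with 1 annotation symbol made of one of these names and a number, and where a gene had several probe sets the one with the highest mean signal stood for it. This gave 44 genes of 22180 with such a probe set: 22 Mmp, 18 Adamts and 4 Timp genes. Mmp15 and Adamts2 had no probe set of 1 symbol in the annotation and were not analysed here. The values are log2 array signals from 9 hearts, 1 per array. The groups were 3 wild type hearts, 3 hearts of Col4a3-/- mice and 3 hearts of Col4a3-/-OPN-/- mice. Col4a3 encodes a type IV collagen chain of basement membranes, and mice without it are used to model Alport syndrome, in which the kidney filter fails. The Col4a3-/-OPN-/- mice are without this chain and without osteopontin, a secreted integrin-binding glycoprotein, so both mutant groups share the loss of Col4a3. The labels give no strain, no sex and no treatment, and no group lacks osteopontin alone. The title places the study in heart failure with preserved ejection fraction.

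Matrix metalloproteinases and ADAMTS proteases are zinc-dependent enzymes that cut proteins of the extracellular matrix. They are made as inactive precursors and opened by other proteases such as furin or plasmin. TIMPs bind the active site and hold the enzymes in check, and in the heart the balance of both sides is known to shape collagen turnover and ventricular remodelling. Gelatinases among them cut type IV collagen, and osteopontin is itself a known substrate of several members, among them Mmp3.

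The median log2 signal per array ranged from 5.18 to 5.24, and correlations between arrays ran from 0.936 to 0.986 (Pearson's r over the probe sets tested). The targeted gene Col4a3 was dim, at 5.07 to 5.52 in wild type, 4.96 to 5.27 in Col4a3-/- and 4.87 to 5.26 in Col4a3-/-OPN-/- hearts, and does not check the genotype labels. The osteopontin gene Spp1 was not analysed here. The cardiomyocyte markers Myh6, Actc1, Tnnt2, Tnni3, Myl2, Ryr2, Pln and Ttn were all above the median signal of the array's probe sets. Their list means ran from 11.5 to 11.9 in the 9 hearts. Hearts of 1 genotype differed in other markers. Replicates 1 and 3 of Col4a3-/- and replicate 2 of Col4a3-/-OPN-/- had Xist between 7.59 and 8.56 and the pattern of female hearts, while no wild type heart did. The same Col4a3-/- replicates 1 and 3 had low means of 5 atrial markers (8.93 and 9.14, against 10.3 to 10.8 in the other 7 hearts). Replicate 3 of Col4a3-/- stood apart in 8 acute phase and activated endothelium markers (list mean 8.73, against 6.25 to 6.91 elsewhere), with the endothelial adhesion gene Sele at 8.26 and Icam1 at 9.63. Replicate 2 of Col4a3-/- had the airway gene Scgb1a1 at 12.2 and the brown fat gene Ucp1 at 11.1. The part of these markers in the results below was not tested, unless a value without the heart is given. Levels in whole hearts cannot tell fewer cells of a type from less RNA per cell.

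Of the 44 genes, 27 exceeded 5.21 in mean signal (the median of the array's probe sets) and were tested: 10 Mmp, 13 Adamts and 4 Timp genes. The other 17 lay below it and were taken as too dim to test, with no separate measure of array background. Differences are on the log2 scale, where 1 unit is a doubling, and come from a limma fit over 13650 probe sets with Benjamini-Hochberg adjustment. In Col4a3-/- against wild type hearts 0 of the 27 genes passed an adjusted p of 0.05, as did 0 of all 13650 probe sets (0.0%). In Col4a3-/-OPN-/- against Col4a3-/- hearts 0 of 27 passed, against 0.044% of all probe sets (6), and in Col4a3-/-OPN-/- against wild type hearts 0 of 27, against 0.0%. At an unadjusted limma p under 0.05 the counts were 4 of 27 (background 8.35%), 3 of 27 (13.6%) and 0 of 27 (3.68%). In Col4a3-/- against wild type hearts 1 of the 4 was higher (Mmp3, background 2.39%) and 3 were lower (Timp4, Adamts8 and Mmp28, background 5.96%). In Col4a3-/-OPN-/- against Col4a3-/- hearts 1 of the 3 was higher (Adamts7, background 8.58%) and 2 were lower (Mmp3 and Adamts17, background 5.03%). The count was 0 in either direction in Col4a3-/-OPN-/- against wild type hearts (background 1.89% higher and 1.79% lower).

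**Figure D1:**
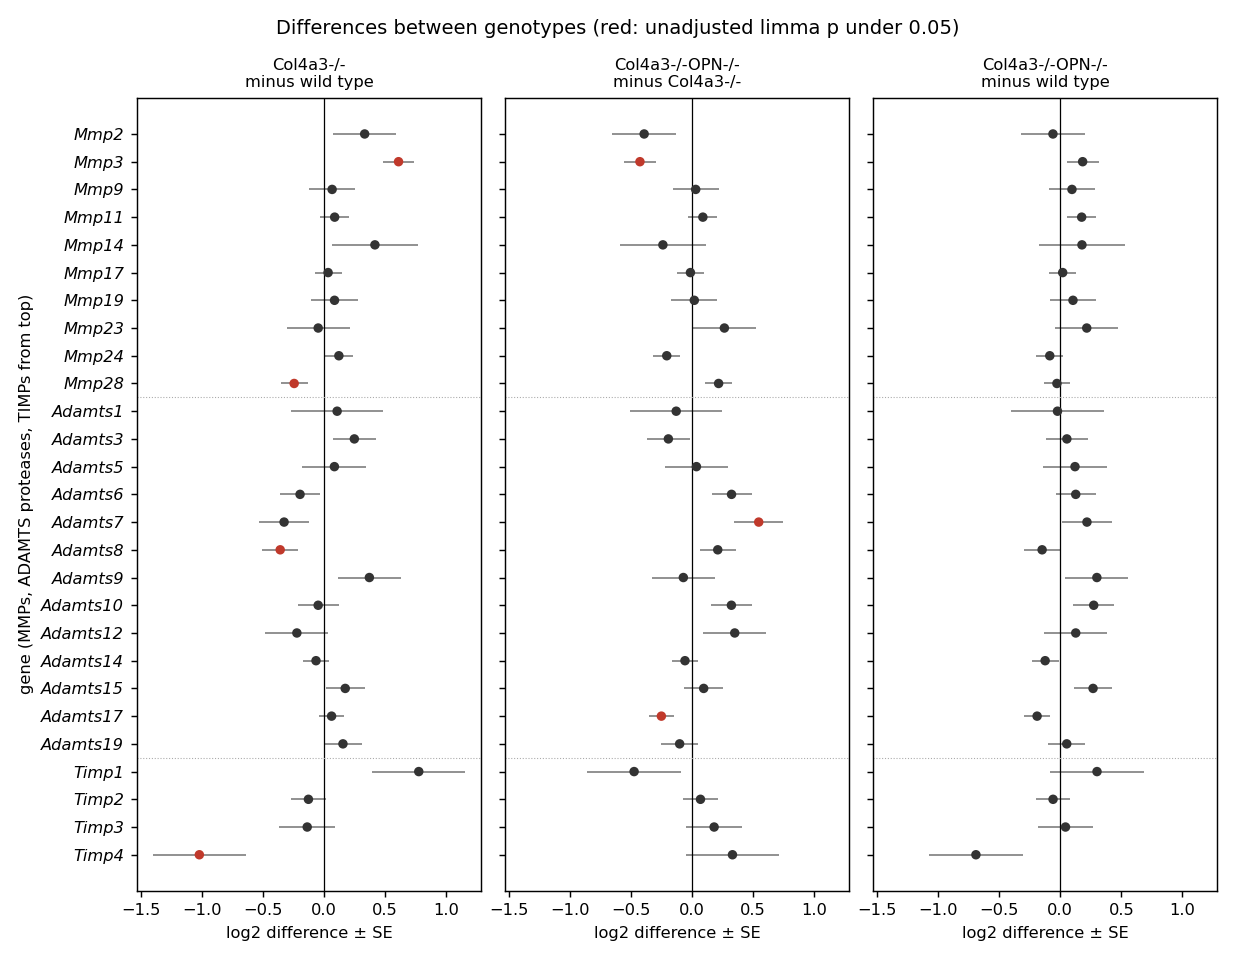
Log2 differences (points) with standard errors (bars) for the 27 tested genes in the 3 comparisons, MMPs at the top, ADAMTS proteases in the middle and TIMPs at the bottom. Red points had an unadjusted limma p under 0.05; Timp4 at -1.02 and Timp1 at 0.78 lie farthest from 0 in Col4a3-/- against wild type hearts, and no gene passed after adjustment.

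The median difference over the 27 genes was 0.07 in Col4a3-/- against wild type hearts, beside -0.02 over all probe sets tested, with 16 of 27 genes positive (background 45.0%). It was 0.03 beside 0.04 in Col4a3-/-OPN-/- against Col4a3-/- hearts, with 15 of 27 positive (background 57.7%). The median was 0.10 beside 0.01 in Col4a3-/-OPN-/- against wild type hearts, with 18 of 27 positive (background 53.1%). By family, Mmp genes had medians of 0.09, 0.002 and 0.10 in these 3 comparisons, Adamts genes 0.06, 0.04 and 0.12, and Timp genes -0.13, 0.12 and -0.01. Several of these medians moved with single hearts and settings. Over the 19 alternatives the second median of the 27 genes ran from -0.05 with array weights to 0.07, and the third from 0.0006 without Col4a3-/-OPN-/- replicate 1 to 0.15. The second Mmp median ran from -0.11 to 0.05 and the second Adamts median from -0.12 to 0.21. The first Adamts median was -0.15 without Col4a3-/- replicate 2. No direction is drawn from any family median. In the first comparison the groups did not overlap at 4 of 27 genes, where 12.5% of all probe sets did not: Mmp3 and Mmp24 were higher (background 4.58%) and Adamts8 and Mmp28 lower (background 7.9%). In the second they did not overlap at 3 of 27 (background 16.5%), with Adamts6 higher (background 10.1%) and Mmp3 and Adamts17 lower (background 6.48%). In the third it was 1 of 27 (background 13.2%), with 0 higher (background 7.55%) and Adamts17 lower (background 5.65%). The share of genes without overlap was 14.8%, 11.1% and 3.7%, so none lay far above the background.

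Mmp3, stromelysin 1, cleaves proteoglycans, fibronectin and other metalloproteinase precursors, and had the smallest p of the 27 genes. Its signal (probe set 17514515) was 5.01, 5.29 and 5.11 in the 3 wild type hearts, and 5.53, 5.70 and 6.03 in Col4a3-/- replicates 1 to 3. It was 5.29, 5.27 and 5.41 in Col4a3-/-OPN-/- replicates 1 to 3. All 3 Col4a3-/- hearts thus lay above all other hearts, and the other 6 hearts overlapped. The log2 difference was 0.61 for Col4a3-/- against wild type (SE 0.13, unadjusted p = 0.000688, limma adjusted p = 0.345) and -0.43 for Col4a3-/-OPN-/- against Col4a3-/- (SE 0.13, unadjusted p = 0.00741, limma adjusted p = 0.244). Col4a3-/-OPN-/- and wild type hearts differed by 0.18, with a 95% interval from -0.10 to 0.47. In limma's F-test over the 3 genotypes 0 of 27 genes passed after adjustment, against 0.0147% of all probe sets. Mmp3 alone of the 27 was under 0.05 before adjustment (limma adjusted p = 0.309), where 9.3% of all probe sets were. The wild type mean of 5.14 lay below 5.21, so the size of the difference is uncertain. The highest value belonged to Col4a3-/- replicate 3, the heart with high Sele, and without it the differences were 0.47 and -0.29.

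Mmp2 and Mmp9 are the gelatinases, which cut denatured collagens and type IV collagen. Mmp2, made mainly by fibroblasts, was at 8.97, 8.72 and 8.76 in wild type, 8.70, 8.94 and 9.82 in Col4a3-/- and 9.07, 8.76 and 8.44 in Col4a3-/-OPN-/- replicates 1 to 3. Col4a3-/- replicate 3 stood 0.999 above the wild type mean, while replicate 2 lay within the wild type range and replicate 1 just below it. The difference of Col4a3-/- from wild type was 0.33 (SE 0.26, limma adjusted p = 0.757), and without replicate 3 it was -0.0000569. Mmp9, stored in neutrophils and also made by macrophages, was at 5.45, 5.57 and 5.36 in wild type, 5.15, 5.41 and 6.01 in Col4a3-/- and 5.44, 5.73 and 5.49 in Col4a3-/-OPN-/- replicates 1 to 3. Col4a3-/- hearts held both its lowest and its highest value, the highest again in replicate 3. The 8 neutrophil markers had list means between 4.92 and 5.14 in all hearts, and 2 of the 8 were above 5.21 in mean signal. These were Csf3r, between 5.515 and 6.07, and Cxcr2, between 5.47 and 6.165, while S100a8 and S100a9 were at or below 5.18. The 7 macrophage markers had list means between 7.60 and 8.36. The part of either cell type in the Mmp9 signal was not tested.

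Membrane-type enzymes sit on the cell surface. Mmp14 opens the Mmp2 precursor together with Timp2 and cuts fibrillar collagen. Its signal was 7.45, 7.29 and 7.10 in wild type, 6.71, 8.10 and 8.28 in Col4a3-/- and 7.87, 7.32 and 7.18 in Col4a3-/-OPN-/- replicates 1 to 3. The 3 Col4a3-/- hearts held both the lowest and the highest values of the series, and their SD of 0.86 was the largest of any tested Mmp gene in a genotype. The difference from wild type was 0.42 (95% interval -0.36 to 1.19, limma adjusted p = 0.771), and it ranged from 0.12 without Col4a3-/- replicate 3 to 0.91 without replicate 1. Mmp24 was at 5.61, 5.61 and 5.67 in Col4a3-/- and between 5.45 and 5.56 in wild type hearts, a difference of 0.12 without overlap (limma adjusted p = 0.790). The GPI-anchored Mmp17 had means of 5.33, 5.36 and 5.34 in the 3 genotypes.

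Among the other metalloproteinases, Mmp23, whose inhibitory domain differs from the usual cysteine switch, was at 6.58, 6.501 and 6.44 in wild type and 6.78, 6.86 and 5.74 in Col4a3-/- replicates 1 to 3. In Col4a3-/-OPN-/- replicates 1 to 3 it was at 6.95, 6.73 and 6.49. Here Col4a3-/- replicate 3 was the lowest heart, the opposite of Mmp2 and Mmp14. Mmp28, epilysin, was at 5.25, 5.495 and 5.27 in wild type, 5.10, 5.24 and 4.93 in Col4a3-/- and 5.26, 5.23 and 5.43 in Col4a3-/-OPN-/- replicates 1 to 3. Col4a3-/- hearts lay just below all wild type hearts, by 0.24 on average (unadjusted p = 0.0481, limma adjusted p = 0.595), with a mean of 5.09 that falls below 5.21. In a fit that also took Y-linked signal into account this difference was -0.12. Mmp19 and Mmp11, which is opened by furin inside the cell, had differences between 0.02 and 0.17 in the 3 comparisons.

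**Figure D2:**
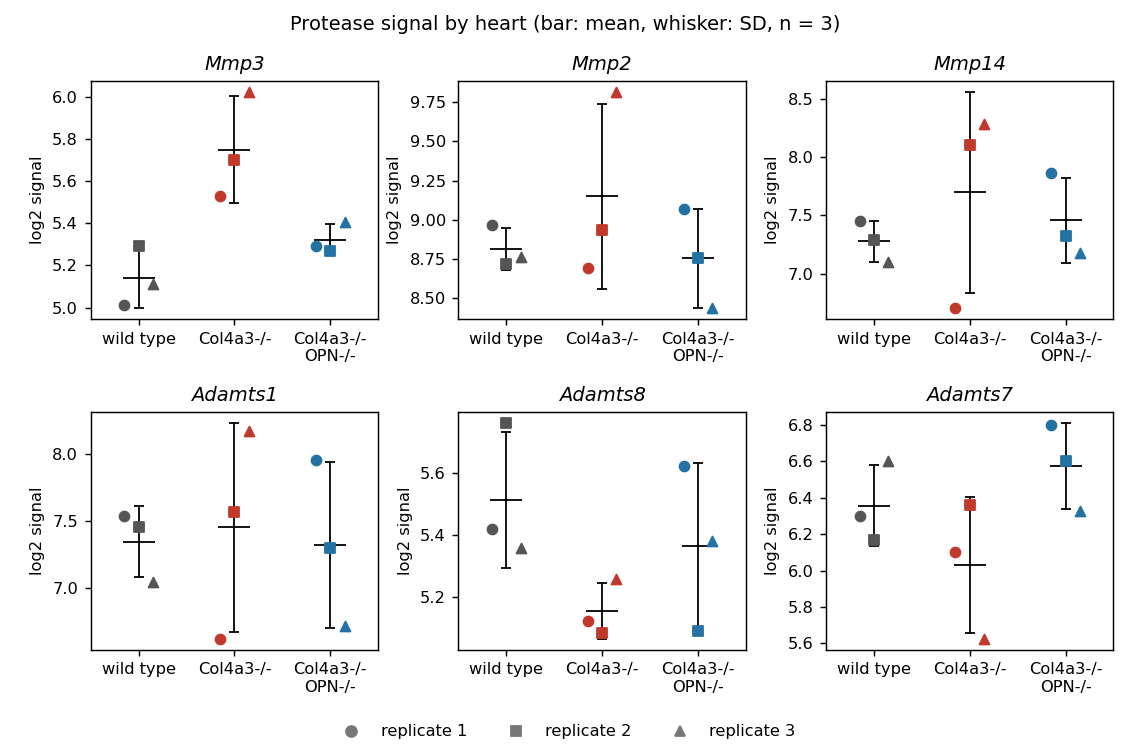
Log2 signal of 6 proteases in each heart (points, shaped by replicate), with the mean and SD of each genotype (n = 3). Mmp3 is higher in all 3 Col4a3-/- hearts, Mmp2, Mmp14 and Adamts1 are highest in Col4a3-/- replicate 3, and Adamts7 is lowest there.

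The 10 genes Mmp13, Mmp12, Mmp1b, Mmp3, Mmp1a, Mmp10, Mmp8, Mmp27, Mmp20 and Mmp7 lie next to each other on chromosome 9, with no other protein-coding gene of the RefSeq table between them. They include the collagenases Mmp13, Mmp8, Mmp1a and Mmp1b, the macrophage elastase Mmp12, the matrilysin Mmp7 and the enamel protease Mmp20. Mmp3 alone among them passed the signal filter, and the other 9 had means between 4.34 and 5.18. So 9 of the 17 dim genes come from this stretch. The remaining dim genes were Mmp16, Mmp21 and Mmp25 and Adamts4, Adamts13, Adamts16, Adamts18 and Adamts20. The nearest to the filter were Mmp27 and Mmp25, at 5.18 each. Of the collagenases, Mmp13 ranged from 4.50 to 4.80 over the 9 hearts, Mmp8 from 4.69 to 4.95, Mmp1a from 4.29 to 4.39 and Mmp1b from 4.29 to 4.47. No difference is given for any of these 17 genes.

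Promoters are described here because most genes of this stretch share a motif, and no link of the motif to the signals was tested. The RefSeq table (build GRCm38.p6) held a promoter for 30 of the 44 genes, and 250 bases before the start site were searched on both strands. The AP-1 motif TGANTCA, known to bind Fos and Jun proteins, occurred in 8 of the 10 neighbouring Mmp genes and in no other gene of the 30. By promoter, it was in 24.2% of the 33 promoters of these genes and 6.75% of all 32851 promoters. Among the promoters of tested genes it was in 5.88%, with Mmp3 alone. The TATA box motif TATAAA was in 27.3% of the members' promoters and 12.4% of all, and the GC box motif GGGCGG in 42.4% and 32.7%. For the TATA box this was 11.8% in promoters of tested genes and 43.8% in those of dim genes. For the GC box it was 64.7% and 18.8%. The last 100 bases before the start site are shown for Mmp3 and 4 of its dim neighbours, with AP-1 and TATA box matches in capitals.
Mmp3, chr9:7445722-7445821, plus strand: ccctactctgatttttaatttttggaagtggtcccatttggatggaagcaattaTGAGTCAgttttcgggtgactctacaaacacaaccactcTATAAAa
Mmp13, chr9:7272414-7272513, plus strand: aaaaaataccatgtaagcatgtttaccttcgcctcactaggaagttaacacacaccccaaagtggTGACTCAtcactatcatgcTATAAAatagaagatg
Mmp10, chr9:7502242-7502341, plus strand: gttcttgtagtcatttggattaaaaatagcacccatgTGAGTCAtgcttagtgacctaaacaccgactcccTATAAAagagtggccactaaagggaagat
Mmp1a, chr9:7464041-7464140, plus strand: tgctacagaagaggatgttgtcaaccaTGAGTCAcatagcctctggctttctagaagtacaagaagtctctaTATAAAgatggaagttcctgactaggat
Mmp7, chr9:7691990-7692089, plus strand: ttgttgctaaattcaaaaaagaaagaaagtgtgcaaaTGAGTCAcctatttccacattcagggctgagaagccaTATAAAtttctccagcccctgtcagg
The 5 windows shown are all among those that hold both motifs, and in each the AP-1 match stands before the TATA box match. Of the other neighbours, Mmp8 and Mmp27 held neither motif and Mmp12 held no TATA box match. In Mmp3 the matches begin 46 and 7 bases before the annotated start. A match is a run of letters and not a measured binding site.

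The ADAMTS proteases that cut proteoglycans such as versican are Adamts1, Adamts4, Adamts5, Adamts8, Adamts9, Adamts15 and Adamts20, and 5 of the 7 were tested. Adamts1 was at 7.53, 7.46 and 7.04 in wild type, 6.62, 7.57 and 8.17 in Col4a3-/- and 7.95, 7.30 and 6.71 in Col4a3-/-OPN-/- replicates 1 to 3. Its range within Col4a3-/- hearts enclosed all 3 wild type hearts, and the difference was 0.11 (95% interval -0.73 to 0.94, limma adjusted p = 0.956). Its neighbour on chromosome 16, Adamts5, was at 7.33, 7.07 and 7.30 in wild type, 6.75, 7.89 and 7.32 in Col4a3-/- and 7.65, 7.002 and 7.41 in Col4a3-/-OPN-/- replicates 1 to 3. Both neighbours were lowest in Col4a3-/- replicate 1, but Adamts1 was highest in replicate 3 and Adamts5 in replicate 2. Adamts9 was at 6.85, 6.53 and 6.78 in wild type, 6.59, 7.34 and 7.33 in Col4a3-/- and 7.56, 6.77 and 6.72 in Col4a3-/-OPN-/- replicates 1 to 3. Its difference of Col4a3-/- from wild type was 0.37 (SE 0.26, limma adjusted p = 0.722). Of the 6 mutant hearts, 3 were above all wild type hearts and the other 3 were within the wild type range.

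Adamts8 was at 5.42, 5.76 and 5.36 in wild type, 5.12, 5.08 and 5.26 in Col4a3-/- and 5.62, 5.09 and 5.38 in Col4a3-/-OPN-/- replicates 1 to 3. All Col4a3-/- hearts were below all wild type hearts, by 0.36 on average (unadjusted p = 0.0323, limma adjusted p = 0.553). The Col4a3-/- mean of 5.15 is below 5.21, so the size is uncertain, and without wild type replicate 2 the difference was -0.23. The dimmer probe set of Adamts8 had a difference of -0.08. Adamts15, its neighbour on chromosome 9, was instead at 6.23, 6.41 and 6.5012 on average in wild type, Col4a3-/- and Col4a3-/-OPN-/- hearts (difference 0.17 for the first comparison, limma adjusted p = 0.789). Vcan, the main versican substrate of this group, had a difference of 0.04 in Col4a3-/- against wild type hearts (limma adjusted p = 0.968).

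Adamts3 and Adamts14 remove the amino-terminal propeptide of procollagens. Adamts3, which also processes the lymphatic growth factor Vegfc, was at 5.41, 5.34 and 5.72 in wild type, 5.44, 5.70 and 6.07 in Col4a3-/- and 5.78, 5.35 and 5.49 in Col4a3-/-OPN-/- replicates 1 to 3. Adamts14 was at 5.61, 5.79 and 5.84 in wild type, 5.63, 5.85 and 5.57 in Col4a3-/- and 5.66, 5.60 and 5.61 in Col4a3-/-OPN-/- replicates 1 to 3. All groups overlapped for both, and neither differed with an unadjusted p under 0.05. Col1a1, Col1a2, Col3a1, Col5a1 and Col5a2 were listed as substrates of the procollagen-processing group, which includes Adamts2. Which member processes which chain was not examined. Of these 5 genes, 4 had negative and 1 a positive difference in Col4a3-/- against wild type hearts (median -0.22, smallest limma adjusted p = 0.880). They ran from Col1a1 at -0.39 to Col5a1 at 0.10. In that comparison 45.0% of all probe sets tested were positive. Without Col4a3-/- replicate 3 all 5 listed genes were positive (median 0.44, Col1a1 0.44). Single hearts lay far apart: Col3a1 was at 8.58, 9.96 and 6.39 in Col4a3-/- replicates 1 to 3 and between 8.47 and 8.83 in wild type. Col4a3-/- replicate 3 thus combined the lowest Col3a1 signal of the 9 hearts with their highest Mmp2 and Mmp14 signals.

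Adamts7 cleaves the cartilage oligomeric matrix protein Comp and is known from vascular smooth muscle. It was at 6.30, 6.17 and 6.60 in wild type, 6.11, 6.36 and 5.62 in Col4a3-/- and 6.80, 6.60 and 6.33 in Col4a3-/-OPN-/- replicates 1 to 3. The difference of Col4a3-/-OPN-/- from Col4a3-/- hearts was 0.55 (SE 0.20, unadjusted p = 0.0210, limma adjusted p = 0.303), with overlap between the groups. Without Col4a3-/- replicate 3 it was 0.34. Comp had -0.85 in Col4a3-/- against wild type (unadjusted p = 0.00102, limma adjusted p = 0.398) and 0.52 in Col4a3-/-OPN-/- against Col4a3-/- hearts (limma adjusted p = 0.300), or -0.63 and 0.31 without that heart. Ncan had the highest difference of the listed proteoglycan substrates in the first comparison (0.31) and the lowest in the second (-0.19). It was at 5.36, 6.22 and 5.38 in Col4a3-/- replicates 1 to 3 and between 5.19 and 5.49 in wild type, so replicate 2 alone stood out. All 5 smooth muscle markers (Myh11, Acta2, Tagln, Cnn1, Smtn) were above the filter. Their list mean was 7.70, 7.77 and 7.18 in Col4a3-/- replicates 1 to 3 and between 8.24 and 8.57 in the other 6 hearts, and their part in the Adamts7 and Comp values was not tested.

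Adamts17, Adamts10 and Adamts6 belong to the members linked to fibrillin microfibrils. Adamts17 was at 5.54, 5.54 and 5.55 in wild type, 5.61, 5.54 and 5.67 in Col4a3-/- and 5.49, 5.15 and 5.43 in Col4a3-/-OPN-/- replicates 1 to 3. All Col4a3-/-OPN-/- hearts were below all hearts of both other groups, and the difference from Col4a3-/- was -0.25 (SE 0.11, unadjusted p = 0.0360, limma adjusted p = 0.344). Without Col4a3-/-OPN-/- replicate 2, the lowest heart and the one with high Xist in its group, it was -0.15. Adamts6 was at 5.71, 6.003 and 6.08 in Col4a3-/- and at 6.48, 6.14 and 6.14 in Col4a3-/-OPN-/- hearts, a difference of 0.32 without overlap (limma adjusted p = 0.421). Adamts10 also had 0.32 in this comparison (limma adjusted p = 0.436). Adamts12 and the valve-expressed Adamts19 had differences within 0.35 of 0 in all 3 comparisons.

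The 4 TIMPs were all tested. Timp4, the inhibitor known for its high level in heart, was at 8.33, 7.89 and 8.62 in wild type, 7.51, 7.99 and 6.28 in Col4a3-/- and 7.13, 7.65 and 7.99 in Col4a3-/-OPN-/- replicates 1 to 3. The ranges touched only at the lowest wild type heart, since 2 hearts of the mutant groups, both at 7.99, lay above it. The difference of Col4a3-/- from wild type was -1.02 (95% interval -1.87 to -0.18, unadjusted p = 0.0224, limma adjusted p = 0.517), the largest in size among the 27 genes. It rested in part on replicate 3, without which it was -0.53, and it was -0.67 in the fit with Y-linked signal. Col4a3-/-OPN-/- hearts differed from wild type by -0.69 (SE 0.38, unadjusted p = 0.0995, limma adjusted p = 0.999) and from Col4a3-/- by 0.33 (limma adjusted p = 0.734). Col4a3-/- and Col4a3-/-OPN-/- hearts are each compared with the same 3 wild type hearts.

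Timp1, an inducible inhibitor often raised in fibrosis and inflammation, was at 6.15, 5.97 and 5.85 in wild type, 6.10, 7.69 and 6.50 in Col4a3-/- and 6.94, 5.69 and 6.24 in Col4a3-/-OPN-/- replicates 1 to 3. The highest hearts were replicate 2 of Col4a3-/- and replicate 1 of Col4a3-/-OPN-/-, and all groups overlapped. The difference of Col4a3-/- from wild type was 0.78 (95% interval -0.07 to 1.62, limma adjusted p = 0.626), and 0.31 without Col4a3-/- replicate 2. The fit with Y-linked signal gave 1.59 (limma adjusted p = 0.243). In Col4a3-/- hearts replicate 2 alone had Y-linked genes at a wild type level. The 2 hearts highest in Timp1 were also the 2 highest in Col1a1 (9.61 and 8.98), Col3a1 (9.96 and 9.48) and Scgb1a1 (12.2 and 9.81). The same held for the means of 8 fibroblast markers (9.28 and 8.96, against 7.62 to 8.90) and 7 macrophage markers (8.36 and 7.99, against 7.60 to 7.92). Not every marker followed. Tcf21, a fibroblast marker, was at 6.58 in Col4a3-/-OPN-/- replicate 1, the lowest of the 9 hearts. Of the other fibroblast markers, Dcn was highest in Col4a3-/- replicate 3 and Lum in wild type replicate 1. Of the macrophage markers, Cd14 was highest in Col4a3-/- replicate 3 (8.46, against 6.84 and 6.24 in the 2 hearts highest in Timp1). C1qa and Cd68 lay within the wild type range in Col4a3-/-OPN-/- replicate 1. Col1a2, Postn, Adgre1, Csf1r, Mrc1 and Lyz2 were highest in the 2 hearts highest in Timp1. Scgb1a1 was also at 9.52 in Col4a3-/-OPN-/- replicate 3, where Timp1 was at 6.24. The part of these markers was not tested.

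Timp3, which stays bound to the matrix and also inhibits ADAMTS proteases, was at 10.3, 10.4 and 10.5 in wild type, 9.92, 9.997 and 10.9 in Col4a3-/- and 10.5, 10.3 and 10.6 in Col4a3-/-OPN-/- replicates 1 to 3. Col4a3-/- hearts again lay on both sides of wild type (difference -0.14, SE 0.23, limma adjusted p = 0.896). Timp2, the partner of Mmp14, was the steadiest of the 4, at 9.44, 9.35 and 9.34 in wild type, 9.06, 9.54 and 9.14 in Col4a3-/- and 9.20, 9.34 and 9.41 in Col4a3-/-OPN-/- replicates 1 to 3, with differences of at most 0.13 in size. Its interval for Col4a3-/- against wild type ran from -0.44 to 0.18.

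**Figure D3:**
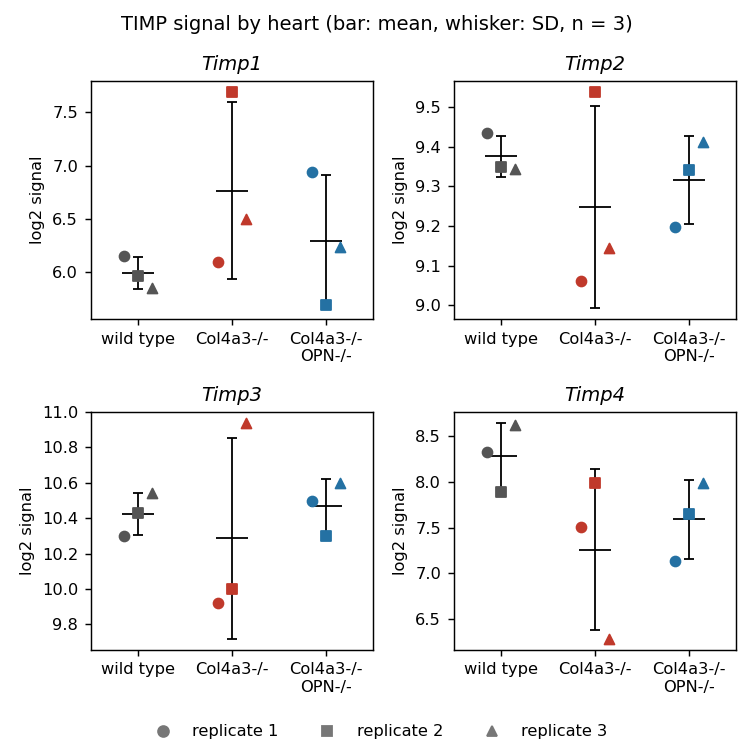
Log2 signal of the 4 TIMPs in each heart (points, shaped by replicate) with the mean and SD of each genotype (n = 3). Timp1 is highest in Col4a3-/- replicate 2, Timp3 is highest and Timp4 lowest in Col4a3-/- replicate 3, and Timp2 stays between 9.06 and 9.54.

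In the RefSeq table Timp1, Timp3 and Timp4 lie inside the synapsin genes Syn1, Syn3 and Syn2. Host and inhibitor had their extremes in different hearts or directions. Syn1 was between 5.48 and 5.69 in all hearts, with 5.58 in the heart where Timp1 was at 7.69. Syn2 was at 6.78 in Col4a3-/- replicate 3, its highest value, where Timp4 was at 6.28, its lowest. The 100 bases before the start sites of the inhibitors with the largest differences held no AP-1 or TATA box match and are shown with a GC box match in capitals.
Timp1, chrX:20870066-20870165, plus strand: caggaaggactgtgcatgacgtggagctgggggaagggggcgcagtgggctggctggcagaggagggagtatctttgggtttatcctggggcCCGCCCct
Timp4, chr6:115252206-115252305, minus strand: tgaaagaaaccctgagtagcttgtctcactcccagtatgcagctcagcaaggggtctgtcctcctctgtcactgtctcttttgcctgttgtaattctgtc
The Timp1 window ends in a GC box match 8 bases before the start, and the Timp4 window holds none of the 3 motifs.

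The spread between hearts of 1 genotype was described after the values were seen. In Col4a3-/- hearts 8 of the 27 genes had an SD over 0.5 (29.6%, against 8.55% of all probe sets tested), in Col4a3-/-OPN-/- hearts 2 (7.41% against 1.52%) and in wild type hearts 0 (0.0% against 0.989%). The median SD of the 27 genes was 0.15, 0.325 and 0.209 in wild type, Col4a3-/- and Col4a3-/-OPN-/- hearts, beside 0.121, 0.211 and 0.135 over all probe sets tested. All probe sets thus spread more in Col4a3-/- hearts too, and no test was made of the difference between these genes and the rest. The largest SDs in Col4a3-/- hearts belonged to Timp4 (0.88), Mmp14 (0.86), Timp1 (0.83) and Adamts1 (0.78).

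**Figure D4:**
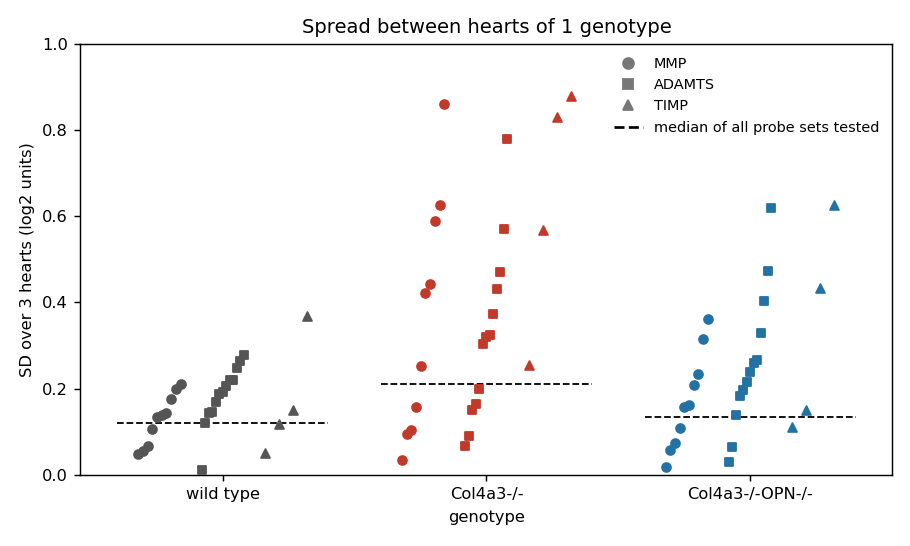
SD over the 3 hearts of each genotype (log2 units) for each of the 27 tested genes, by family, with the median of all probe sets tested as a dashed line. Points reach 0.88 in Col4a3-/- hearts and stay at or below 0.37 in wild type hearts.

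The extremes sat in few hearts. Col4a3-/- replicate 3 was the highest of the 9 hearts for 10 of 27 genes (37.0%, against 21.3% of all probe sets tested), namely Mmp2, Mmp3, Mmp9, Mmp14, Mmp17, Mmp24, Adamts1, Adamts3, Adamts17 and Timp3. It was also the lowest for 9 (33.3% against 26.1%), among them Timp4, Adamts7, Adamts12, Mmp19 and Mmp23. Col4a3-/-OPN-/- replicate 1 was the highest for 7, all of them Adamts genes except Mmp23 (25.9% against 15.8%). Col4a3-/- replicate 1 was the lowest for 7 (25.9% against 18.5%), among them Mmp14, Adamts1, Adamts5, Timp2 and Timp3.

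**Figure D5:**
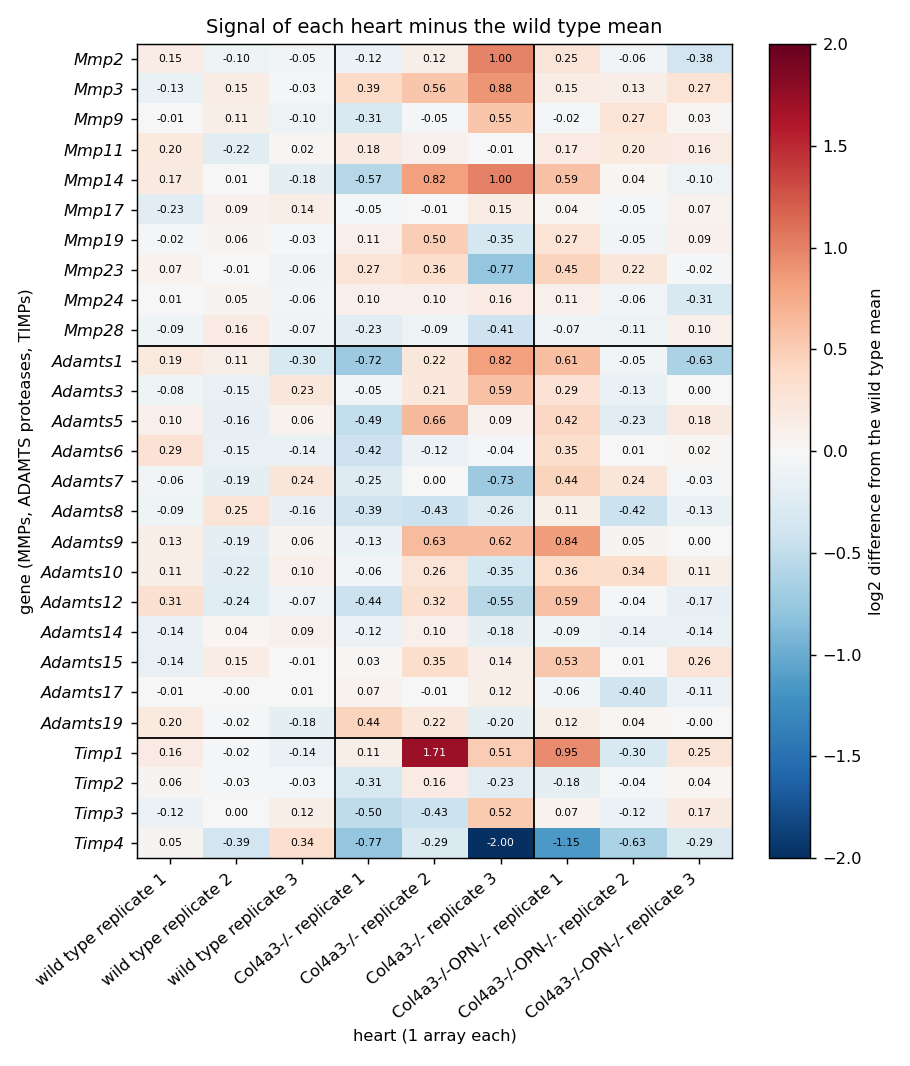
Signal of each of the 27 tested genes in each heart minus the wild type mean of that gene (log2 units, printed in each cell; red above, blue below). The lowest value is -1.998 for Timp4 in Col4a3-/- replicate 3, where Mmp14 is at 1.001, and the highest is 1.71 for Timp1 in Col4a3-/- replicate 2.

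Genes that act with these proteases passed in none of the comparisons (limma, 0 adjusted p under 0.05 in any of the lists below). In Col4a3-/- against wild type hearts 1 of 16 tested activators and inhibitors had an unadjusted limma p under 0.05 (background 8.35%). It was Spock1, at 0.22 without overlap (limma adjusted p = 0.546). Of the 16 differences, 11 were positive (background 45.0%) and 5 negative, with a median of 0.10. The highest were Lcn2, which binds Mmp9, at 0.90, and the urokinase receptor Plaur at 0.82. Both were highest in Col4a3-/- replicate 3, and Lcn2 is also one of the acute phase markers that set this heart apart. Plaur was at 5.84, 6.24 and 8.41 in Col4a3-/- replicates 1 to 3. Without replicate 3 the differences were 0.29 for Lcn2 and 0.03 for Plaur, and 6 of the 16 genes were positive. The lowest difference was that of Pcsk6, a proprotein convertase, at -0.39, which was -0.01 without that heart. In Col4a3-/-OPN-/- against Col4a3-/- hearts 4 of the 16 had an unadjusted limma p under 0.05 (background 13.6%). Of these, 2 were higher (Pcsk6 and Reck, background 8.58%) and 2 lower (Spock1 and Sdc4, background 5.03%). Spock1 had -0.28 (limma adjusted p = 0.255). Pcsk6 had the highest difference (0.90, unadjusted p = 0.00789, limma adjusted p = 0.248) and Plaur the lowest (-0.96, limma adjusted p = 0.435). These were 0.52 and -0.17 without Col4a3-/- replicate 3. Reck, a membrane-anchored inhibitor of metalloproteinases, had -0.29 and 0.41 in these comparisons (limma adjusted p = 0.665 and 0.337), and -0.09 and 0.22 without that heart. The list ran in Col4a3-/-OPN-/- against wild type hearts from Plaur at -0.14 to Lrp1, a receptor that clears proteases, at 0.53. Bsg, an inducer of metalloproteinases, and the convertase Furin, which had the highest mean signals of the list, had differences within 0.31 of 0.

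The 6 ADAMTS-like proteins, which resemble ADAMTS proteases without the catalytic domain, all had positive differences in Col4a3-/-OPN-/- against Col4a3-/- hearts, where 57.7% of all probe sets did (median 0.33, smallest limma adjusted p = 0.289). Before adjustment 2 of the 6 were under 0.05, both higher (background 13.6%, and 8.58% higher). The highest was Adamtsl5 at 0.53 and the lowest Adamtsl1 at 0.09. Without Col4a3-/- replicate 3, 5 of 6 were positive, the median was 0.24 and Adamtsl5 had 0.30. Against wild type, Col4a3-/- hearts had 5 of 6 negative (3 of 6 without replicate 3), with Papln at -0.40 and Adamtsl3 at 0.02. Over all probe sets tested 45.0% of the differences were positive in this comparison. Against wild type, Col4a3-/-OPN-/- hearts had Adamtsl2 at 0.42 and Papln at -0.09. ADAM sheddases are membrane proteases that release growth factors and receptors. The list of 10 ADAM genes also holds Adam22 and Adam23, which lack an active catalytic site. In Col4a3-/- against wild type hearts 4 of the 10 were positive (background 45.0%) and 6 negative, from Adam23 at -0.35 to Adam8 at 0.64. In the comparison of Col4a3-/-OPN-/- with the same Col4a3-/- hearts Adam23 had 0.45 (limma adjusted p = 0.272) and Adam8 -0.58. Adam8 was at 4.94, 5.28 and 6.83 in Col4a3-/- replicates 1 to 3, and without replicate 3 its differences were 0.07 and -0.004. Without that heart Adam23 had -0.22 and 0.32, and 6 of the 10 ADAM genes were positive against wild type. The sheddases with the highest signal, Adam10 and Adam15, had differences of at most 0.12 in size in all 3 comparisons. Among 12 tested other matrix-degrading proteases, the cathepsin gene Ctsl had the highest difference in Col4a3-/- against wild type hearts (0.43, and -0.07 without Col4a3-/- replicate 3, where it was at 11.3) and the mast cell carboxypeptidase gene Cpa3 the lowest (-0.68, unadjusted p = 0.0142, limma adjusted p = 0.502). Cpa3 also had -0.87 in Col4a3-/-OPN-/- against wild type hearts (unadjusted p = 0.00324, limma adjusted p = 0.999), while of the other mast cell markers Cma1, Mcpt4 and Tpsb2 were dim and Kit, which other cells also express, had means of 5.98, 5.82 and 5.87 in wild type, Col4a3-/- and Col4a3-/-OPN-/- hearts.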

How the data were processed

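RNA of 9 mouse hearts was measured on arrays. The deposited log2 values were made by the authors with RMA (background correction, normalization across arrays and a summary for each probe set), as the submitters' processing notes and the usual meaning of RMA give it, with no version. The labels name a small RNA labelling kit, while the annotation is that of a whole-transcript gene array, so how the RNA was labelled is uncertain. Of 33793 probe sets, 23521 had 1 symbol, 1814 several and 8458 none listed. The 13650 with 1 symbol and a mean above 5.21 were tested, without further normalization, with limma 3.58.1 in R 4.3.3 (lmFit, eBayes with trend, all 9 arrays, adjusted p under 0.05). Members and lists were chosen with earlier results of these data known. Values by heart were given for tested members with an unadjusted p under 0.05, the 3 with the highest mean per family, and small role groups. Other lists are named by their extreme differences and highest signals. Other genes, such as Reck, were named after their values were seen. All 44 identifiers matched the RefSeq table. Nothing says how replicates were raised, so p-values measure the spread between these samples. An exact permutation test of 3 against 3 hearts cannot go below 0.1. The fit was tested on simulated data with 200 changed probe sets. Alternatives were 2 scalings, 2 filters, 2 variance settings, the replicate block, array weights, fits of the compared arrays alone, a Y-linked covariate and each array left out.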

Additional observations from a re-analysis of the deposited data

How the results depend on the processing

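The count of 0 called genes held in all 19 alternatives in each of the 3 comparisons, with the smallest adjusted p of any member between 0.111 and 0.94 in Col4a3-/- against wild type hearts. With replicate number as a block (replicate block), 0 members were called in each comparison, and over all probe sets the calls in Col4a3-/-OPN-/- against Col4a3-/- hearts went from 6 to 0 (0 to 22 over all alternatives). The labels do not say that the numbers pair the hearts. For values minus their genotype mean, r was over 0.1 in 2 of 9 same-numbered pairs (-0.194 to 0.230). By the same measure 3 of 9 hearts correlated best with their own number. Such correlations cannot tell whether hearts shared a litter or a batch. Signs held in all alternatives for the recomputed differences (Mmp3, Mmp14, Mmp28, Adamts8, Timp1 and Timp4 in Col4a3-/- against wild type, Mmp3, Adamts7 and Adamts17 in Col4a3-/-OPN-/- against Col4a3-/- hearts), except Mmp2 in Col4a3-/- against wild type hearts, from -0.0000569 without Col4a3-/- replicate 3 to 0.56 without replicate 1. Mmp3 ranged from 0.47 to 0.72 in that comparison (adjusted p from 0.111 to 0.940), Timp4 from -1.38 to -0.53 (0.260 to 0.966) and Timp1 from 0.31 to 1.59 (0.234 to 0.940). Family medians turned sign in Col4a3-/-OPN-/- against Col4a3-/- hearts under 10 of 19 alternatives for Mmp (lowest -0.11, stricter filter), 4 for Adamts (lowest -0.12, array weights), 3 for Timp (lowest -0.07, without Col4a3-/- replicate 3) and 4 for all 27 genes (lowest -0.05). Against wild type, 1 turned the Adamts median in Col4a3-/- (-0.15) and 1 in Col4a3-/-OPN-/- hearts (-0.03, without its replicate 1), and Timp medians turned under 1 (0.006) and 5 (up to 0.03). The stricter filter tested 14 members. Signals near 5.21 limit the dim genes.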

Other observations

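Differences between the signals of genes within a heart were chosen after their values were seen and are given with no test. They describe unequal change of the genes and not their relative amounts. Timp1 and Timp4 are both inhibitors. Of the tested genes they had the highest and the lowest difference in Col4a3-/- against wild type hearts. Timp1 minus Timp4 was -2.18, -1.93 and -2.77 in wild type, -1.41, -0.29 and 0.22 in Col4a3-/- and -0.19, -1.96 and -1.75 in Col4a3-/-OPN-/- replicates 1 to 3. All 3 Col4a3-/- hearts lay above all wild type hearts, and Col4a3-/-OPN-/- replicate 1 reached the level of the Col4a3-/- hearts. The pair was picked from these same values, so its separation is no independent result. Mmp14 minus Timp4 was -0.88, -0.60 and -1.52 in wild type, -0.80, 0.11 and 2.00 in Col4a3-/- and 0.74, -0.33 and -0.81 in Col4a3-/-OPN-/- replicates 1 to 3, with overlap between all groups. Mmp2 minus Timp2 kept a narrow range in wild type (-0.63 to -0.47) and reached 0.67 in Col4a3-/- replicate 3.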
